A study of Drosophila melanogaster with 4 samples.

Results

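Jonah and trypsin genes encode digestive proteases of the fly gut. They were chosen by symbol: every gene with reads whose BDGP6 name begins with Jon and a number, every Greek-lettered trypsin gene from alphaTry to lambdaTry, and yip7, Ser6, Ser8 and Bace. The authors' deposited table held 31 such genes, of which 28 had reads, out of 15282 genes with reads in all. No reads were listed for deltaTry, Jon65Aii or Jon66Cii. The 28 genes were 10 trypsin genes, 15 Jonah genes with yip7 counted among them, the serine protease genes Ser6 and Ser8, and Bace. Bace encodes an aspartyl protease, so it falls outside the name serine protease and is described separately.

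Trypsins cut proteins after lysine and arginine, and the Jonah proteins are relatives of the chymotrypsins. Both are made as inactive precursors, and midgut cells secrete them into the gut lumen, where they split food protein into peptides that exopeptidases then shorten. The midgut lies in the thorax and abdomen, outside the head.

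RNA came from pooled heads of Drosophila melanogaster adults aged 30 days. Lamin-B overexpression flies (2 samples) were Hsp70-Gal4/+; +/UAS-LamB.GFP, and control sibling flies (2 samples) were +/+; +/UAS-LamB.GFP. Both groups therefore carried the transgene for GFP-tagged lamin B, a protein of the nuclear lamina. Only the overexpression flies carried Gal4, under the promoter of the heat shock gene Hsp70, and the labels name no heat shock. No group carried the driver alone, so effects of the driver, of its chromosome and of lamin B cannot be told apart. The labels give neither the sex of the flies nor whether the samples of a group came from separate cultures. P-values therefore reflect the variation among these libraries alone, and that variation could be purely technical.

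The authors' deposited table gives 1 mean normalized count, fold change and test per gene and no values per library. Whole reads in each library were worked out from it, as described under the processing, for all 28 genes. The overexpression libraries had size factors of 1.10 and 1.15 and are called the first and the second here. The control libraries had size factors of 0.73 and 1.09 and are likewise the first and the second. These names are not the replicate numbers of the labels. Libraries alike in composition would have held 37.0 M and 38.4 M in the overexpression group, against 24.5 M and 36.5 M in the control group, where M stands for 1000000 reads. For Lam, which encodes the overexpressed lamin, the authors' deposited table gave a log2 fold change of 1.04 with an SE of 0.0801 (adjusted p = 6.76e-36, DESeq2 Wald test). Head markers were abundant, and ninaE, the main rhodopsin of the eye, had a mean normalized count above 1000000 in the authors' deposited table.

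Reads of the digestive protease genes were high in both overexpression libraries and nearly missing from both control libraries. Summed over the 28 genes, there were 8821 and 3196 reads in the overexpression libraries, against 39 and 68 in the control libraries. Divided by the size factors, the sums were 7987 and 2791 in the overexpression libraries, against 53.5 and 62.4 in the control libraries. The ratio of normalized reads was 90.8 (95% interval of counting error 75.1 to 111). Without the first overexpression library the ratio was 47.4, and without the second it was 136. Library totals were not given. Per M of libraries alike in composition, these genes would have had 238 and 83.2 reads in the overexpression libraries, against 1.59 and 1.86 in the control libraries. In bulk heads, fewer cells of a type and less RNA per cell cannot be told apart.

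All 28 genes had a log2 fold change above 0 in the authors' deposited table, as did 54.8% of genes with reads. For 17 of the 28 this sign was fixed in advance. They had 0 reads in both controls and were listed only because they had reads. Only the 11 genes with control reads could have gone either way. In refits with a library left out, 24 were above 0 without the first overexpression library and 27 without the second control library. The authors' deposited table gave 23 of the 28 an adjusted p-value. It called 11 of them higher (47.8%) at an adjusted p under 0.05 and 0 lower, where 5.66% of all genes tested were called higher and 3.07% lower. The median log2 fold change was 0.22 over those 23 genes and 0.01 over all genes tested, in the authors' deposited table. That table shrinks fold changes towards 0, and more so for genes whose libraries vary. Over the reads themselves, the median ratio of the genes was 24.8, with the genes at 0 in the controls placed at their lower bound.

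Control reads were absent for most of these genes. Both control libraries had 0 reads of 17 genes, and 26 of the 28 had at most 10 reads over the control group. Of all genes with means up to 300, 19.4% had no control reads, a share that includes genes with very few reads. With means above 10 and up to 300, 12 of 20 digestive protease genes had none, as had 249 of all 4053 genes. Both overexpression libraries stood above both control libraries for 24 genes, where this held for 34.4% of all genes with means up to 300. The 4 exceptions were Jon99Fi, Ser8, Jon66Ci and gammaTry. With 2 libraries against 2, an exact two-sided permutation test cannot give a p below 0.33, so no permutation test was made.

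**Figure D1:**
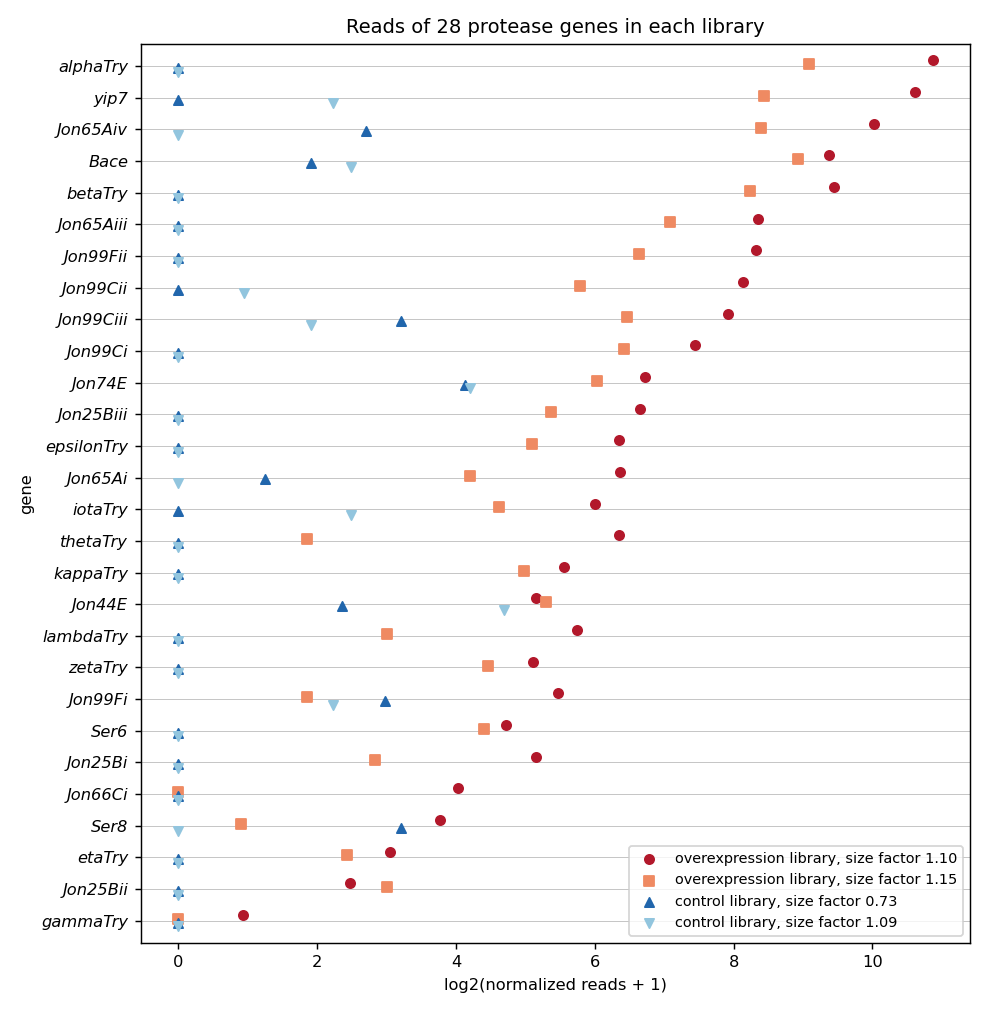
Normalized reads of each gene in each library, as log2(reads divided by the size factor + 1), with genes in the order of their mean in the overexpression libraries. Red marks are overexpression libraries and blue marks are control libraries. The red marks run up to 1868 normalized reads for alphaTry, and 17 genes have both blue marks at 0.

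The trypsin genes had a ratio of normalized reads of 702 (301 to 2160) as a family. Their sums were 3235 and 1107 reads in the overexpression libraries, against 0 and 5 in the control libraries, and all 5 control reads belonged to iotaTry. Of the 10 genes, 8 had an adjusted p-value. The authors' deposited table called betaTry, epsilonTry and kappaTry higher, beside 5.66% of all genes tested. All 10 lie in 1 cluster of 20.7 kb on chromosome 2R, at 11336840 to 11357537 (BDGP6), with deltaTry, which had no reads. Near-identical copies in this cluster make the split of reads between its genes uncertain, since the handling of shared reads is not given in the sources used here.

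alphaTry (FBgn0003863, 2R:11344260-11345119) had the most reads of all 28 genes. It had 2063 and 622 reads in the overexpression libraries, with 0 and 0 in the control libraries. Normalized reads averaged 1206 ± 937 in the overexpression libraries and 0 in the control libraries (SD, n = 2 each). Against a floor of 3 reads over the control group, it was at least 723.6-fold higher. The authors' deposited table gave it a log2 fold change of 0.14 with an SE of 0.0663 (adjusted p = 0.224), so it was not called.

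betaTry (FBgn0010357, 2R:11346325-11347395) had 769 and 345 reads in the overexpression libraries, with 0 and 0 in the control libraries. It was at least 300.2-fold higher by the same floor. The authors' deposited table called it, with a log2 fold change of 0.33 and an SE of 0.0975 (adjusted p = 0.0125). Its neighbour epsilonTry had 89 and 38 reads in the overexpression libraries, with 0 and 0 in the controls, at least 34.2-fold higher (log2 fold change 0.31, adjusted p = 0.0188 in the authors' deposited table). kappaTry had 51 and 35 reads in the overexpression libraries, with 0 and 0 in the controls, at least 23.18-fold higher (log2 fold change 0.26, adjusted p = 0.0413 in the authors' deposited table). For these 3 called trypsins the groups did not overlap and no control read was found.

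The other trypsin genes were not called. iotaTry had 70 and 27 reads in the overexpression libraries, with 0 and 5 in the controls, a ratio of 15.7 (6.50 to 49.4). zetaTry had 37 and 24 reads in the overexpression libraries, with 0 and 0 in the controls. The authors' deposited table gave these genes adjusted p-values of 0.122 and 0.120. lambdaTry and thetaTry were concentrated in the first overexpression library. lambdaTry had 58 and 8 reads in the overexpression libraries, thetaTry had 89 and 3, and both had 0 reads in each control. etaTry had 8 and 5 reads in the overexpression libraries, with 0 and 0 in the controls. gammaTry had a single read, in the first overexpression library, so no fold is given. The authors' deposited table held no adjusted p-value for etaTry and gammaTry.

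The Jonah genes held the larger share of the reads. Their sums were 4815 and 1508 reads in the overexpression libraries, against 31 and 58 in the control libraries, a ratio of 57.4 (46.6 to 71.6). Of the 15 genes, 13 had an adjusted p-value, and the authors' deposited table called 7 higher, beside 5.66% of all genes tested. The 7 were Jon65Aiii, Jon99Ci, Jon99Fii, Jon99Ciii, Jon74E, Jon99Cii and Jon25Biii. Unlike the trypsins, the Jonah genes are spread over several sites of the genome, and most sites hold neighbouring copies. Closely similar neighbours limit the assignment of reads here too.

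At 3L:6035216-6054443, a stretch of 19.2 kb, lie yip7, Jon65Aiv, Jon65Aiii, Jon65Aii and Jon65Ai. The 4 of them with reads summed to 3326 and 954 reads in the overexpression libraries, against 5 and 4 in the control libraries. yip7 (FBgn0040060, 3L:6035216-6036175) had 1729 and 396 reads in the overexpression libraries, with 0 and 4 in the controls, a ratio of 430 (168 to 1578). For yip7 the authors' deposited table gave a log2 fold change of 0.12 with an SE of 0.0618 (adjusted p = 0.285). Jon65Aiv (FBgn0250815, 3L:6039155-6040135) had 1149 and 384 reads in the overexpression libraries, with 4 and 0 in the controls, a ratio of 310 (121 to 1139). The log2 fold change of Jon65Aiv was 0.09 (adjusted p = 0.407) in the authors' deposited table. Neither gene was called, although the groups did not overlap.

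Jon65Aiii (FBgn0035665, 3L:6050757-6051690) was the called gene of that stretch. It had 358 and 154 reads in the overexpression libraries, with 0 and 0 in the controls, at least 138-fold higher. The authors' deposited table gave it a log2 fold change of 0.80 with an SE of 0.133 (adjusted p = 1.54e-07), next after Bace among the 28 genes. Jon65Ai had 90 and 20 reads in the overexpression libraries, with 1 and 0 in the controls, a ratio of 88.9 (15.6 to 3544), and was not called (adjusted p = 0.0820 in the authors' deposited table).

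Beside 5.66% of all genes tested, all 3 Jon99C genes on chromosome 3R were called higher. At 3R:29922216-29926189 they summed to 765 and 259 reads in the overexpression libraries, against 6 and 4 in the control libraries. Jon99Ci had 191 and 97 reads in the overexpression libraries, with 0 and 0 in the controls, at least 77.6-fold higher (log2 fold change 0.64, adjusted p = 1.85e-05 in the authors' deposited table). Jon99Cii had 309 and 62 reads in the overexpression libraries, with 0 and 1 in the controls, a ratio of 299.9 whose interval runs from 53.5 to 11880. Jon99Ciii was the one with control reads in both libraries. It had 265 and 100 reads in the overexpression libraries, with 6 and 3 in the controls, a ratio of 32.8 (17.1 to 72.3). The authors' deposited table gave a log2 fold change of 0.41 to Jon99Cii (adjusted p = 0.00331) and of 0.55 to Jon99Ciii (adjusted p = 0.00026).

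The Jon99F pair at 3R:30487016-30489895 split. Jon99Fii (FBgn0039777, 3R:30487016-30487928) had 352 and 113 reads in the overexpression libraries, with 0 and 0 in the controls, at least 125-fold higher. The authors' deposited table called it, with a log2 fold change of 0.60 and an SE of 0.122 (adjusted p = 4.55e-05). Jon99Fi had 48 and 3 reads in the overexpression libraries, with 5 and 4 in the controls, so the groups overlapped. Without the first overexpression library, the ratio of Jon99Fi was 0.529 instead of 4.58. The authors' deposited table did not call it (adjusted p = 0.594).

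The remaining Jonah genes ranged from nearly silent to present in the controls. In the Jon25B group on chromosome 2L, Jon25Biii had 110 and 46 reads in the overexpression libraries, with 0 and 0 in the controls, at least 42.0-fold higher (adjusted p = 0.00782 in the authors' deposited table). Jon25Bi had 38 and 7 reads in the overexpression libraries and Jon25Bii had 5 and 8, with 0 reads of either gene in each control. Jon66Ci had 17 and 0 reads in the overexpression libraries, with 0 and 0 in the controls, and rested on 1 library. None of these 3 was called.

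Jon74E and Jon44E had the most control reads. Jon74E had 116 and 74 reads in the overexpression libraries, with 12 and 19 in the controls, a ratio of 4.96 (3.38 to 7.5). Normalized reads of Jon74E averaged 84.8 ± 28.6 in the overexpression libraries and 16.9 ± 0.70 in the control libraries (SD, n = 2 each). The authors' deposited table called it, with a log2 fold change of 0.46 and an SE of 0.133 (adjusted p = 0.0109), and it had the smallest ratio of reads among the called genes. Jon44E had 38 and 44 reads in the overexpression libraries, with 3 and 27 in the controls, a ratio of 2.21 (1.44 to 3.48), and was not called (adjusted p = 0.600 in the authors' deposited table). Together with Jon99Ciii, these genes held 65.4% of all control reads of the 28 genes.

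Ser6 and Ser8, serine protease genes outside these clusters, had few reads. Ser6, on the X chromosome, had 28 and 23 reads in the overexpression libraries, with 0 and 0 in the controls, at least 13.7-fold higher, and was not called (adjusted p = 0.168 in the authors' deposited table). Ser8 had 14 and 1 reads in the overexpression libraries, with 6 and 0 in the controls, and the groups overlapped. The ratio of Ser8 was 2.02 (0.741 to 6.36), and it was 0.265 without the first overexpression library and 0.811 without the second control.

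Bace (FBgn0032049, 2L:8494893-8496307) is named after the vertebrate beta-site amyloid precursor protein cleaving enzyme, and its product is an aspartyl protease of the pepsin type. It had 729 and 557 reads in the overexpression libraries, with 2 and 5 in the control libraries. Normalized reads averaged 573 ± 123 in the overexpression libraries and 3.67 ± 1.31 in the control libraries (SD, n = 2 each), a ratio of 148.5 (71.9 to 370.2). The authors' deposited table gave it the highest log2 fold change of the 28, 2.35 with an SE of 0.160 (adjusted p = 6.86e-46). In the list of aspartyl protease genes, which includes Bace, 3 had an adjusted p-value. Of these, 2 were called higher, Bace itself and cathD, beside 5.66% of all genes tested in the authors' deposited table. cathD, which encodes the lysosomal protease cathepsin D, had a log2 fold change of 0.20 (adjusted p = 0.000312) in the authors' deposited table. CG5860, which had no adjusted p-value, had 13 and 4 reads in the overexpression libraries, with 0 and 0 in the controls.

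**Figure D2:**
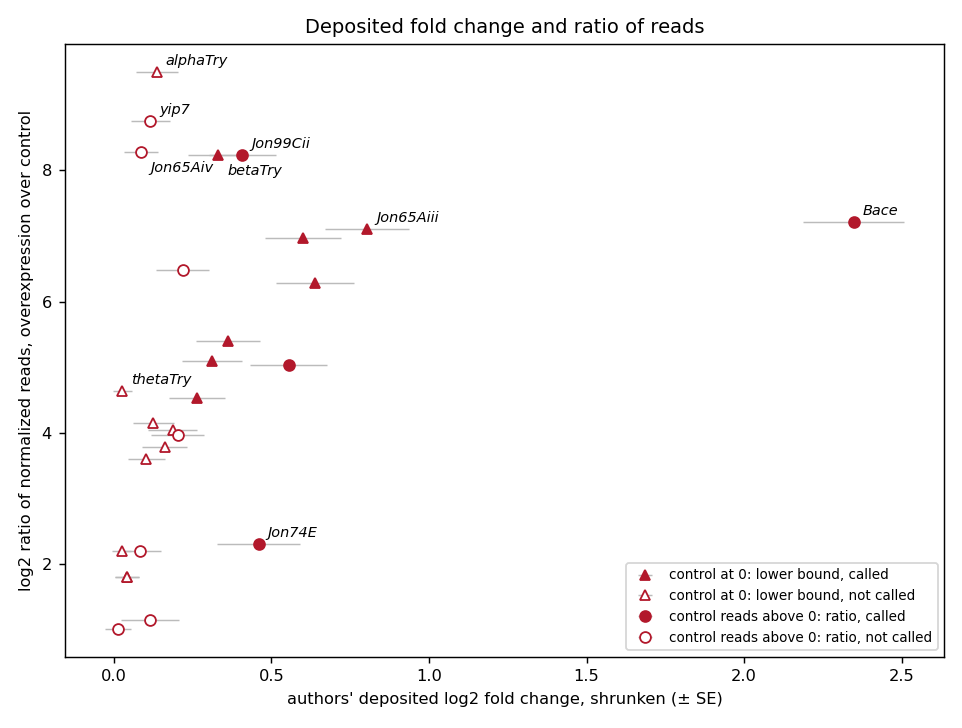
Log2 ratio of normalized reads, overexpression over control, against the authors' deposited log2 fold change with its SE, for the 27 genes with a ratio. Triangles are lower bounds for genes at 0 in both controls, circles are ratios, and filled marks are called genes. alphaTry and yip7 lie at the top at deposited values of 0.14 and 0.12, while Bace lies at 2.35.

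Genes with a large difference in reads were found among the called and the uncalled alike. The 11 called genes had ratios or lower bounds from 4.96 to 300.2. The 12 genes tested and not called had ratios or lower bounds from 2.21 to 723.6. As a sum, the called genes were at 3339 and 1621 reads in the overexpression libraries, against 20 and 28 in the control libraries, a ratio of 83.5 (62.9 to 113). The other 17 genes were at 5482 and 1575 reads in the overexpression libraries, against 19 and 40 in the control libraries, a ratio of 96.7 (74.9 to 127). Of the 17 genes with 0 control reads, 7 were called and 10 were not.

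Called genes had lower dispersions, the variance between libraries beyond counting error that the deposited fit implies for each gene. The dispersion lay between 0.0401 and 0.471 for called genes and between 0.454 and 5.40 for the 12 tested genes that were not called. Bace had the lowest dispersion and also the most even overexpression libraries among the 6 genes with most reads, with normalized reads in the first 1.36 times those in the second. The same quotient was 3.44 for alphaTry, with a dispersion of 1.05, and 30.8 for thetaTry, with a dispersion of 5.40. Dispersion did not follow this quotient in every gene. Ser6, at 1.26, had a dispersion of 0.777 and was not called, while Jon99Cii, at 5.17, had 0.330 and was called. Calls and implied dispersions come from the same fit, so this is a description and not a separate test.

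A likelihood-ratio test on the reads with these dispersions and without the shrinkage called 20 of the 28 genes. It called 10.7% of the 7875 genes with recovered reads, where the authors' deposited table called 5.35% of them. Refits to 3 libraries kept each gene's dispersion as implied by all 4, so the lone library of a group was assumed to vary like the others and the left-out one still bore on the spread. The calls changed most when a control was left out. Fewer of the 28 genes were then called than with all 4 libraries. The share of all genes called in these refits was not worked out. The drop therefore cannot be set apart from a change in the refit as a whole. Jon74E was lost without the first overexpression library, and iotaTry and Jon65Ai were gained without the second. Bace, Jon65Aiii, Jon99Fii and Jon99Ci were called in all 4 refits, which is a description under that assumption. betaTry, epsilonTry, kappaTry, Jon99Cii, Jon74E and Jon25Biii were lost without either control, and Jon99Ciii without the second control.

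Most of these genes had more reads in the first overexpression library than in the second. Normalized reads were higher in the first than in the second for 26 of the 28 genes, where this held for 63.8% of all genes with means up to 300. Jon44E and Jon25Bii were the exceptions. Over the 23 genes with a mean above 10, the median quotient of first over second was 2.69. It was 3.03 for the summed trypsin cluster, 3.61 for the yip7 and Jon65A stretch, 3.06 for the Jon99C genes, 3.58 for the Jon99F pair and 2.60 for the Jon25B genes. These sums lay between 2.60 and 3.61, but the remaining sites, each with reads of 1 gene, did not. There the quotient was 0.895 for Jon44E, 1.26 for Ser6, 1.36 for Bace, 1.63 for Jon74E and 14.5 for Ser8. Jon66Ci had 0 reads in the second. All 249 genes with 0 reads in both controls and means above 10 and up to 300, 12 of the digestive protease genes included, were examined alike. Of these, 98.4% were higher in the first, and the median quotient was 3.28 over the 248 with reads in the second. Among all genes of that range 68.0% were.

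In both overexpression libraries alphaTry took the largest share of the protease reads, and the shares of yip7 and Bace differed most between the libraries. alphaTry made up 23.4% of the reads of the 28 genes in the first and 19.5% in the second. yip7 made up 19.6% in the first and 12.4% in the second, and Jon65Aiv 13.0% and 12.0%. betaTry made up 8.72% in the first and 10.8% in the second. Bace had 8.26% in the first and 17.4% in the second.

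Set on length, the order of levels in the overexpression libraries was led by the same genes. alphaTry had a mean of 1402 normalized reads per kb of exon (2172 and 631.6 in the overexpression libraries). yip7 followed with 1057 per kb (1732 and 382.5), then Jon65Aiv with 760.9, betaTry with 465.7 and Bace with 405.1. Further down came Jon65Aiii with 262.1, Jon99Fii with 228.6 and Jon99Cii with 193.7 per kb. Of 27 pairs of neighbours in this order, 26 had overlapping ranges over the overexpression libraries, so most ranks are not separated by the spread. The genes are short, and 23 of the 28 have a single exonic block.

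Other genes listed as digestive enzymes of the gut moved in both directions. Among trypsin-like and chymotrypsin-like genes outside the family names, 21 were tested, and 5 were called higher and 5 lower in the authors' deposited table, beside 5.66% called higher and 3.07% lower over all genes tested. The median log2 fold change was 0.15 over these 21 genes and 0.01 over all genes tested in the authors' deposited table. Those higher were CG10472, CG7542, CG9673, CG17571 and CG10477, with log2 fold changes from 0.30 to 0.74 in the authors' deposited table. CG10472 had 754 and 227 reads in the overexpression libraries, with 23 and 24 in the controls. The 5 lower genes were CG8329, CG9676, CG32523, CG3088 and CG7829, with log2 fold changes from -3.23 to -2.48 in the authors' deposited table. These 5 genes were more abundant than the Jonah and trypsin genes: CG8329 had a mean normalized count of 39734 and CG32523, the least abundant, one of 2416, in the authors' deposited table. By the same measure alphaTry, the highest of the 28 digestive protease genes, had a mean normalized count of 603. Whether the reads of these 5 genes in heads came from the gut was not tested.

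Carbohydrase and lysozyme genes had 6 of 18 tested called higher and 2 lower, beside 5.66% and 3.07% of all genes tested in the authors' deposited table. Their median log2 fold change was 0.23, against 0.01 over all genes tested, in the authors' deposited table. The maltase genes Mal-A7, Mal-A8, Mal-A6 and Mal-A1 were higher, with log2 fold changes of 1.34, 0.76, 0.70 and 0.51 in the authors' deposited table. The lysozyme genes LysD and LysC were higher as well, at 0.79 and 0.41 in the authors' deposited table. Mal-A7 had 700 and 345 reads in the overexpression libraries, with 0 and 0 in the controls. Lower were tobi, a glucosidase gene regulated by diet, at -0.86, and the amylase gene Amy-p, at -0.19, in the authors' deposited table.

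Exopeptidase and lipase genes had 3 of 14 tested called higher and 0 lower, beside 5.66% and 3.07% of all genes tested, in the authors' deposited table. Their median log2 fold change was 0.08, against 0.01 over all genes tested, in the authors' deposited table. The called genes were CG8564, CG8093 and CG8560. CG8564 had 428 and 168 reads in the overexpression libraries, with 3 and 4 in the controls. As for thetaTry, reads of some others lay mostly in the first overexpression library: CG12374 had 570 and 90 reads in the overexpression libraries, with 0 and 0 in the controls. Of 13 regulators of digestive enzyme genes tested, 1 was called higher and 0 lower, a share near the 5.66% called higher among all genes tested. That gene, sug, which encodes the sugar-responsive transcription factor sugarbabe, was at 0.61 on the log2 scale in the authors' deposited table (adjusted p = 6.16e-07). The activin ligand gene daw had 0.23 and its receptor gene babo -0.14 in the authors' deposited table, neither called.

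Some markers of tissues outside the head moved along with the digestive protease genes, and their part in the result was not tested. Of 15 midgut markers tested, 4 were called higher (mesh, Mur29B, Mal-A1 and Myo31DF) and 1 lower (Amy-p) in the authors' deposited table, beside 5.66% called higher and 3.07% lower over all genes tested. Over the 12 midgut markers with recovered reads, normalized sums were 1461 and 882.8 in the overexpression libraries, against 707 and 820 in the control libraries. Of the 12, 2 were at 0 in both controls, Mur29B (mean 32.9) and GATAe (mean 9.69). So were 19.4% of all genes with means up to 300, a share that includes genes with very few reads. Among the 4053 genes with means above 10 and up to 300, 249 were at 0 in both controls. The list held both patterns: mesh, a gene of the septate junctions of gut cells, had 274 and 140 reads in the overexpression libraries, with 8 and 20 in the controls, while lab had 148 and 125 in the overexpression libraries, with 84 and 142 in the controls. GATAe, a regulator of midgut identity, had 38 and 5 reads in the overexpression libraries, with 0 and 0 in the controls.

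Male reproductive tract genes showed the widest separation of the marker lists, with 11 of 12 called higher in the authors' deposited table, beside 5.66% of all genes tested. Over the 11 with recovered reads, normalized sums were 4292 and 2371 in the overexpression libraries, against 13.7 and 8.26 in the control libraries, and 7 of the 11 were at 0 in both controls. Ebp, the remaining one, had a log2 fold change of 4.69 in the authors' deposited table. EbpII had 837 and 625 reads in the overexpression libraries, with 0 and 0 in the controls. The first overexpression library was 1.81 times the second for this sum, against 2.86 times for the sum of the 28 digestive protease genes.

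Abdominal Hox genes, which mark trunk segments, had low reads in all libraries and none of 3 was called. abd-A had 44 and 19 reads in the overexpression libraries, with 0 and 0 in the controls, and Abd-B had 38 and 21 in the overexpression libraries, with 0 and 4 in the controls. Ubx had 11 and 19 reads in the overexpression libraries, with 16 and 6 in the controls, so its groups overlapped. Their normalized sums were 84.2 and 51.5 in the overexpression libraries, against 21.9 and 9.18 in the control libraries. Malpighian tubule markers had 2 of 7 called higher (salt and Uro) and 1 lower (Irk2) in the authors' deposited table, beside 5.66% called higher and 3.07% lower over all genes tested, shares that also serve for the next 3 lists. Over the 3 with recovered reads, normalized sums were 292.5 and 188.6 in the overexpression libraries, against 149 and 168 in the control libraries. Most of the control sums came from Urm1, at 110 and 110 in the overexpression libraries, against 125 and 127 in the control libraries. CapaR had 13.6 and 22.7 in the overexpression libraries, against 24.7 and 41.3 in the control libraries. Uro, the urate oxidase gene, had 187 and 64 reads in the overexpression libraries, with 0 and 0 in the controls. Fat body markers had 3 of 5 called higher and 1 lower, and salivary gland markers had 0 of 2 called, in the authors' deposited table. Of 12 eye and neuron markers, 0 were called higher and 5 lower in the authors' deposited table.

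**Figure D3:**
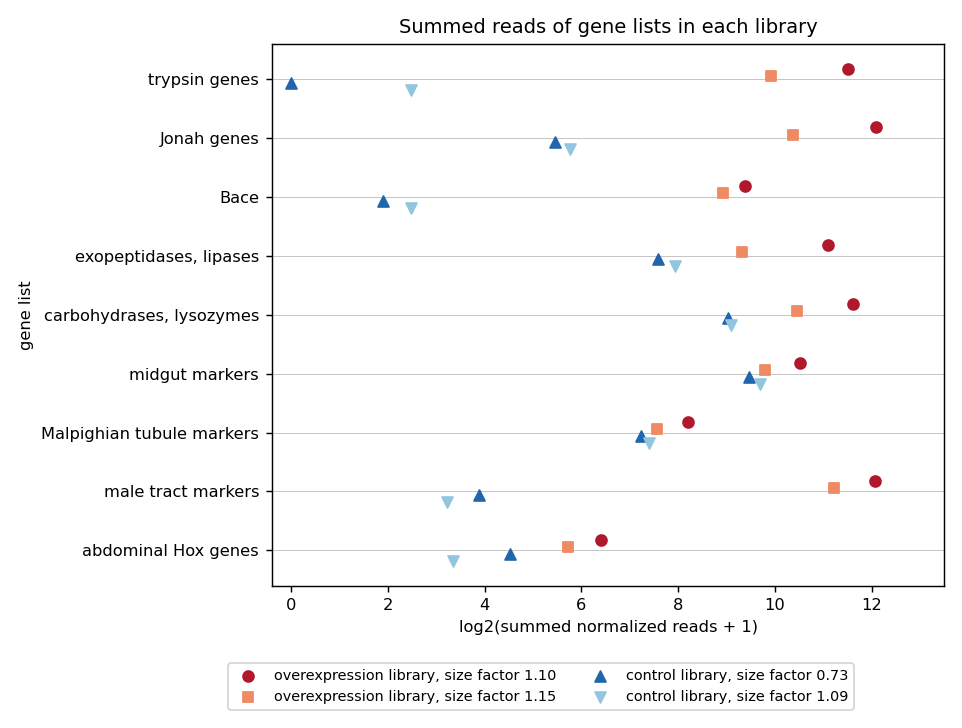
Normalized reads summed over each gene list in each library, as log2(sum + 1), over the genes with recovered reads. Red and orange marks are overexpression libraries, blue marks are control libraries. The trypsin genes lie at 2929 and 967 in the overexpression libraries, against 0 and 4.59 in the control libraries, and the male tract markers reach 4292.

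The genes whose reads over the 4 libraries came closest to the median profile of the 28 genes were ms(2)35Ci, CG9550, Tengl3, CG33309 and CG31693. Likeness was the distance between centred log2(normalized reads + 1) profiles, which ran from 0.196 to 0.254 for these 5 of 7842 genes. ms(2)35Ci had 56 and 20 reads in the overexpression libraries, with 0 and 0 in the controls. CG9550 had 129 and 51 reads in the overexpression libraries, with 1 and 1 in the controls. CG9550 was called (adjusted p = 0.003) and the other 4 were not in the authors' deposited table.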

How the data were processed

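Poly-A RNA of pooled heads was sequenced in 2 lamin-B overexpression and 2 control sibling samples, per the labels' protocols. The submitters' processing notes name STAR 2.5, HTSeq, DESeq2 1.22.1, DESeq and BDGP6 without roles. Strand settings and the treatment of shared reads were not given in the sources used here. For 17753 genes, the authors' deposited table holds the mean signal (mean normalized count), the log2 fold change, its standard error and Wald score, and the p-value with its adjusted p-value. The direction of the fold change, overexpression over control, follows the group names of that table, and Lam is positive in it. A second deposited table names no groups and was not used.

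The design assumed counts per library might be given. None were, so calls are those of the authors' Wald test at an adjusted p-value under 0.05. Whole reads were recovered with Python 3.11.15, numpy 2.4.6, pandas 2.3.3 and scipy 1.17.1. The mean normalized count is a sum of 4 whole numbers, each worth a fixed step per library. The steps, and the group of each library, came from genes with 1 read in all and the sign of their fold change. Among whole-number solutions, the one taken was that whose negative binomial fit, with a normal prior of precision 9.73, gave the deposited log2 fold change within 5e-06 at the deposited standard error. Where the standard error lay at its upper bound of 0.16, as for Bace, the fit was set to the deposited fold change. The solution was then judged by the standard error, within the same limit. This worked for 7867 of 7976 genes with means up to 300 (98.6%). Data simulated with these steps tested the procedure, not the recovered reads themselves. Of the 28 genes, 19 had 1 solution, and for the other 9 the next best solution missed by at least 0.000237.

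Ratios divide summed reads by summed size factors, with exact 95% binomial intervals. Where a group had 0 reads, 3 reads in total stood in for it. Neither intervals nor these bounds cover more than counting error. Symbols and coordinates are from the BDGP6 annotation of Ensembl. All members of the list are named, as are the genes of the companion lists that were called or had the 3 largest absolute Wald scores, and the 5 most alike genes. Some other uncalled genes and markers were named after their values were seen. The members and lists were chosen with earlier results of these data known. Alternatives were other thresholds, other adjustments, another scaling, libraries left out and a test without shrinkage. Figures were drawn with matplotlib 3.10.9.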

Additional observations from a re-analysis of the deposited data

How the results depend on the processing

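The count of 11 digestive protease genes called became 12 at an adjusted p-value under 0.1 and 7 under 0.01, and 10 with p-values adjusted over all genes. Chosen after seeing the data, the likelihood-ratio test without shrinkage called 20, leaving out a library gave 4 to 13, and 4 were called in all refits. The median ratio of reads, 24.8, ran from 10.5 to 48.5 with a library left out. It was 10.5 without the second control, where lower bounds fall by construction because the floor of 3 reads is then divided by 1 size factor instead of 2. The summed ratio, 90.8, ran from 47.4 to 136 with a library left out and was 70.5 without alphaTry. Scaling to equal medians shifted overexpression over control by -0.17 on the log2 scale, and the median ratio was then 22.1. Of 133 values of single genes under alternatives, 107 moved by less than the spread, 23 moved further and 3 reversed. Most of the 23 were lower bounds of genes at 0 in both controls with a control left out, which fall by construction as above. The reversals were Ser8 at 0.265 and 0.811, in a range of 0.265 to 3.84 with a library left out, and Jon99Fi at 0.529, in a range of 0.529 to 8.78. The cause of the reversals was not tested. Without the first overexpression library, thetaTry and Jon66Ci gave no ratio, so these values are not among the 133. Companion list calls, 23 in all, were 28 at a threshold of 0.1 and 22 with p-values adjusted over all genes. No paired analysis was possible because the recovered libraries carry no replicate number. Other count tests, normalizations and filters per library were not run. The 2 libraries a group and the few control reads limit the precision of every ratio.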
